A study of Mus musculus with 4 samples.

Results

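The 9 genes described here encode receptors and co-receptors of activin and of TGFβ: Acvr2a, Acvr2b, Tgfbr2, Acvr1b, Acvr1c, Tgfbr1, Acvr1, Tgfbr3 and Tgfbr3l. ATAC-seq, which uses a transposase to tag accessible DNA, gave the open chromatin near them in LβT2 cells. These mouse cells, written LβT2b in the growth protocol, are an established line used as a model of gonadotropes, the pituitary cells that make LH and FSH. All cells spent a night without serum, and then 2 libraries came from cells given vehicle for 6 h and 2 from cells given activin A at 1 nM for 6 h. The labels do not say whether the libraries came from separate cultures, so a p-value here measures the spread between libraries, which may be technical. The members were the peaks whose gene name in the authors' HOMER annotation was one of the 9 symbols. They numbered 129 of 417506 peaks in the 4 lists and fell into 78 of 255101 merged regions, where a merged region joins peaks of any library that overlap by at least 1 bp.

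Activin and TGFβ signal through pairs of receptor kinases at the cell surface. The ligand binds a type II receptor, which then phosphorylates a type I receptor, and the type I receptor phosphorylates the SMAD proteins that enter the nucleus. In the gonadotrope, activin signalling of this kind raises transcription of Fshb, and inhibin opposes it by occupying type II receptors together with a co-receptor. Acvr2a and Acvr2b encode the activin type II receptors and Tgfbr2 that of TGFβ. Acvr1b and Acvr1c encode activin type I receptors, Tgfbr1 encodes the TGFβ type I receptor, and Acvr1 encodes a type I receptor best known for BMP signals. Tgfbr3 encodes betaglycan, a co-receptor for TGFβ and for inhibin A, and Tgfbr3l encodes an inhibin B co-receptor of gonadotropes.

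Each library had between 172146474 and 224226184 high-quality autosomal reads. Vehicle library 2 stood apart, with 178358 peaks against 70692 to 85112 in the other 3. Read enrichment over gene starts was 2.72 and 2.48 under vehicle against 3.12 and 3.04 under activin, so this measure moved with treatment. Among gonadotrope markers, Lhb, Cga, Gnrhr, Gata2 and Egr1 each had a promoter-annotated peak in all 4 libraries, as did 30.0% of 18844 protein-coding gene names. Foxl2 and Pitx1 had one in 3 libraries, Nr5a1 in 1, and Lhx3 and Fshb in none. Under any gene name, a peak overlapped the RefSeq promoter windows of Foxl2 and Lhx3 in all 4 libraries, but not that of Fshb. Such a peak in all 4 libraries was found for 51.3% of 16457 protein-coding genes. Of 8 markers of other pituitary cells and 7 of blood, vessel, stromal and epithelial cells, 0 had a promoter-annotated peak in all 4 libraries. In any library, 5 and 3 of these had none. Of those without one, 3 and 1 gave their name to no peak of any kind in the annotation. Col1a1 and Pdgfra, genes of stromal cells, had one in 3 libraries each.

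The RefSeq promoter sequences of 6 members are shown because they span what was seen at the starts of these genes: the strongest peak (Tgfbr1), strong peaks of the activin receptors (Acvr2a, Acvr1b), a moderate peak with few CG dinucleotides (Tgfbr3l), a weak peak with many (Acvr1c) and no peak (Tgfbr2). Each is 300 bases of GRCm38.p6, from 250 before the RefSeq start to 50 from the start onwards, written 5′ to 3′ on the gene's strand. Capitals mark matches on either strand to GGGCGG (the GC box), CCAAT (the CCAAT box) and CAGAC (a short SMAD motif). The windows are chr4:47352972-47353271 on the plus strand for Tgfbr1, chr2:48813859-48814158 on the plus strand for Acvr2a, chr15:101173822-101174121 on the plus strand for Acvr1b, chr8:4247964-4248263 on the plus strand for Tgfbr3l, chr2:58357709-58358008 on the minus strand for Acvr1c and chr9:116175314-116175613 on the minus strand for Tgfbr2.
Tgfbr1: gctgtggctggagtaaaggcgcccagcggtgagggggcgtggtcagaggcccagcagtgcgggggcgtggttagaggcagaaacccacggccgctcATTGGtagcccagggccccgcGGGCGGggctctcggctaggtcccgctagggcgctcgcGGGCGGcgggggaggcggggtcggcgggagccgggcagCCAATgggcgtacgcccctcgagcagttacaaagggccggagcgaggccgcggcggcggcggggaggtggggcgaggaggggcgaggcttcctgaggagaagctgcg
Acvr2a: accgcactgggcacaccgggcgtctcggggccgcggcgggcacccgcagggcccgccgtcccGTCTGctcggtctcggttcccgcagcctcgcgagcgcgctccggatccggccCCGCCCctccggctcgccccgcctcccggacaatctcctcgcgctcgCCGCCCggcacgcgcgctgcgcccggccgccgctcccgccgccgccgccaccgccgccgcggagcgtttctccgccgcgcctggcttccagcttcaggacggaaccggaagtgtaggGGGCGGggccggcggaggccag
Acvr1b: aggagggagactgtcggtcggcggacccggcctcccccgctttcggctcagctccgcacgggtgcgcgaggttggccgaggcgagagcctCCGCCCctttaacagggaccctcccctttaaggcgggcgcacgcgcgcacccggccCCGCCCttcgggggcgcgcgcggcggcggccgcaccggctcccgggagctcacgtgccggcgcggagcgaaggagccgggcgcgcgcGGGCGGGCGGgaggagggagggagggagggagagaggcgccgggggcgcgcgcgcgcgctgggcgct
Tgfbr3l: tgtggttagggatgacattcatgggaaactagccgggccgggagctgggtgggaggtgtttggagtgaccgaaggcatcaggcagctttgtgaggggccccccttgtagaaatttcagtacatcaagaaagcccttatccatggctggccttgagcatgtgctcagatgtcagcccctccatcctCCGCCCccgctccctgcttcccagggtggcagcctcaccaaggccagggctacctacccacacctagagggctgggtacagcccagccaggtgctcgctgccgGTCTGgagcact
Acvr1c: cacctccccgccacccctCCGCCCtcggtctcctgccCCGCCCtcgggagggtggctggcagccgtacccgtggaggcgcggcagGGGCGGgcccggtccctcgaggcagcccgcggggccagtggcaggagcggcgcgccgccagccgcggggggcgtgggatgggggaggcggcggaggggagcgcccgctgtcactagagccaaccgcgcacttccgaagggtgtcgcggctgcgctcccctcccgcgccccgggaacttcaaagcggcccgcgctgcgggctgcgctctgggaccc
Tgfbr2: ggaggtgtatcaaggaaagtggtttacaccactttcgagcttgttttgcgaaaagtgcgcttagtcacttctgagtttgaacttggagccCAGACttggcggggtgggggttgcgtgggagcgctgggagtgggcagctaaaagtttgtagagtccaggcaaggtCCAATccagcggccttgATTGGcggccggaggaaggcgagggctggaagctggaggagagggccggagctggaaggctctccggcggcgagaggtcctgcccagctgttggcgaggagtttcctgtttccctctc

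The windows differed in CG dinucleotides and GC boxes. Acvr2a held 54 CG dinucleotides, Acvr1b 51, Acvr1c 39 and Tgfbr1 34, whereas the median of 32544 RefSeq promoter windows was 7. Tgfbr2 held 15 and Tgfbr3l held 7. The windows of Acvr1 and Acvr2b, which are not printed, held 51 and 27. Counted with overlapping matches, GGGCGG occurred 4 times in Acvr1b, 3 times each in Acvr2a and Acvr1c, 2 times in Tgfbr1, 1 time in Tgfbr3l and 0 times in Tgfbr2, and 35.9% of all windows held it at least 1 time. CCAAT occurred 2 times in Tgfbr1 and 2 times in Tgfbr2, against 37.4% of all windows with a match. CAGAC occurred 1 time in Acvr2a, Tgfbr3l and Tgfbr2 of the windows shown, and 49.5% of all windows held it. The palindrome GTCTAGAC (0.215% of all windows), TATAAA (13.6%) and the NR5A1 motif CAAGGTCA (1.53%) had 0 matches in the windows shown. A match is a run of letters in this window, and says nothing of binding.

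The start of Tgfbr1 carried the strongest peak of any receptor gene. Its promoter region (ENSMUSG00000007613, chr4:47352447-47353812, promoter-TSS in the annotation) had a −log10 q, the authors' measure of peak significance, of 46.0 and 31.2 in vehicle libraries 1 and 2 and of 56.8 and 53.2 in activin libraries 1 and 2. These values placed it within the top 0.595% of peaks of each library. Read density, in high-quality reads per kb of peak per 1000000 high-quality reads, was 7.68 and 4.98 under vehicle against 7.72 and 8.20 under activin. Vehicle library 2 was the low one, and the other 3 lay close together. The mean density was 6.33 ± 1.91 with vehicle and 7.96 ± 0.339 with activin (SD, n = 2 each).

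Both activin type II receptor genes were open at their RefSeq starts, but only Acvr2b carried its own name there. At Acvr2b (ENSMUSG00000061393) the promoter region chr9:119401583-119403613 had a −log10 q of 8.45 and 7.17 under vehicle against 8.26 and 9.17 under activin. Its density was 2.52 and 2.15 under vehicle against 2.58 and 2.80 under activin, and vehicle library 1 had it as 2 peaks. A second region in intron 1 (chr9:119407541-119408249) was weaker, with a −log10 q of 1.72 and 2.62 under vehicle against 4.44 and 3.85 under activin. Its density was 1.74 and 1.84 against 2.12 and 2.45, so before any centring the activin libraries were the higher ones on both measures.

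Acvr2a (ENSMUSG00000052155) had 10 peaks under its own name, none of them at the RefSeq start. The annotation measures distance from a start at 48890389 on chromosome 2, which is 76.3 kb inside the gene from the RefSeq start at 48814109. The peak at the RefSeq start was listed under Gm13489. That region, chr2:48813454-48815091, had a −log10 q of 19.3 and 18.8 under vehicle against 32.1 and 23.6 under activin, and a density of 2.51 and 3.05 against 3.40 and 2.95. The densities of the groups overlapped, while the −log10 q was higher in both activin libraries. Among the 10 peaks under its own name, 8 had a −log10 q under 2 and the highest was 2.61.

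Tgfbr2 (ENSMUSG00000032440), the TGFβ type II receptor gene, had no peak at its start. Of the 9 genes it had the most peaks under its own name. Peaks inside the gene under other names numbered 2, against 41 in Acvr1 and 39 in Tgfbr3. The 32 peaks named Tgfbr2 lay in 25 regions, of which 21 had a peak in 1 library, 3 in 3 libraries and 0 in all 4. Of all merged regions 11.7% had a peak in all 4, and the share with a peak in 1 library was not counted. The highest −log10 q was 3.21, in intron 1 in vehicle library 2 alone. The nearest peak to the RefSeq start was 1655 and 1851 bp away in the vehicle libraries, and 24002 and 1653 bp away in the activin libraries. Of the 32 peaks, 19 lay over 100 kb from the start, as far as 441 kb upstream, and 6 held under 10 high-quality reads, 3 of them none. Peaks with so few high-quality reads made up 6.47% of all autosomal peaks, and Tgfbr2 was the only one of the 9 genes to have any.

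Among the type I receptors, Acvr1b (ENSMUSG00000000532) had 2 regions called in all 4 libraries. At its promoter (chr15:101173592-101174496) the −log10 q was 9.35 and 8.02 under vehicle against 16.7 and 9.18 under activin. The density there was 3.36 and 3.38 under vehicle against 4.99 and 3.73 under activin, and activin library 1 was the high one. An intergenic region 9.7 kb upstream of the RefSeq start (chr15:101163945-101164707) had a −log10 q of 4.40, 6.41, 8.73 and 4.78 in the same order. Its density was 2.43 and 2.81 against 2.89 and 2.62, and the groups overlapped on both measures.

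Acvr1 and Acvr1c were alike in that every peak under their own names was weak. All 11 peaks of Acvr1 (ENSMUSG00000026836) and all 8 of Acvr1c (ENSMUSG00000026834) had a −log10 q under 2. For Acvr1 the annotation's start was 50.6 kb from the RefSeq start, and the strong peak at the RefSeq start was listed under Upp2, a uridine phosphorylase gene on the opposite strand whose annotated start is 490 bp away. That region (chr2:58566238-58568840) had a −log10 q of 17.6 and 10.5 under vehicle against 19.4 and 16.5 under activin, and a density of 3.67 and 2.91 against 3.47 and 3.43. One region covered both starts, so the 2 promoters could not be told apart there. For Acvr1c the annotation's start was 33.0 kb inside the gene, and the region at the RefSeq start (chr2:58356997-58358337, listed under Gm13545) was weak, with a −log10 q of 1.57 in both vehicle libraries and of 1.94 and 2.28 in the activin libraries. Its density was 1.62 and 1.24 against 1.74 and 1.67. In vehicle library 1 that peak ended 76 bp short of the RefSeq start and did not reach the promoter window.

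The co-receptor Tgfbr3 (ENSMUSG00000029287) had 2 regions under its name, both called in all 4 libraries. The region over exon 1 and the start of intron 1 (chr5:107288538-107289758) had a −log10 q of 11.1 and 9.02 under vehicle against 20.9 and 13.8 under activin. Its density was 2.42 and 1.98 under vehicle against 2.83 and 2.57 under activin. A region 12.6 kb into intron 1 (chr5:107276745-107277275) had a −log10 q of 2.63, 3.18, 3.36 and 3.27 and a density of 1.79, 1.53, 1.63 and 1.50 in the same order. Before any centring, the exon 1 region was higher in both activin libraries on both measures. In intron 1 the densities overlapped, while the −log10 q was higher in both activin libraries.

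Tgfbr3l (ENSMUSG00000089736), the inhibin B co-receptor gene, had all of its regions called in every library, as did Tgfbr3. The gene is 3210 bp long in RefSeq and held 3 regions. The annotation measures distance from a start at 4250329 on chromosome 8, which is 2.12 kb downstream of the RefSeq start. The region at the RefSeq start (chr8:4247760-4248639) had a −log10 q of 6.17 and 2.46 under vehicle against 8.55 and 5.99 under activin, with a density of 3.24, 2.96, 2.96 and 3.13. The next, 1.2 kb downstream (chr8:4249153-4249653) and also annotated as promoter, had a −log10 q of 1.60, 1.76, 2.76 and 3.33 and a density of 3.11, 2.33, 3.29 and 3.26. The one over exons 2.4 kb downstream of the RefSeq start (chr8:4250361-4250829) lay 260 to 323 bp from the annotation's start. It had a −log10 q of 3.41, 3.36, 3.96 and 5.78 and a density of 3.46, 3.14, 4.08 and 4.04. The first region overlapped between groups on both measures, and the other two were higher in both activin libraries before any centring.

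**Figure D1:**
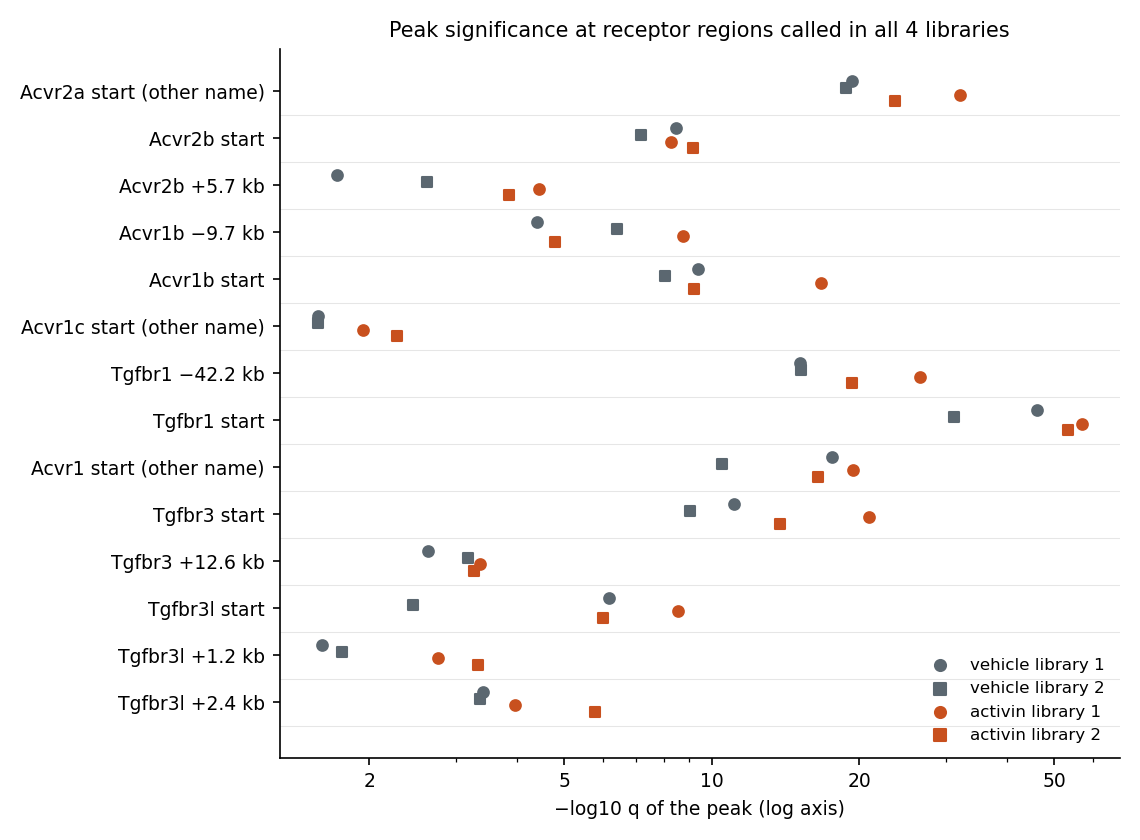
The −log10 q (log axis) in each library is plotted for the 11 merged regions named for a receptor gene with a peak in all 4 libraries, and for the start regions of Acvr2a, Acvr1 and Acvr1c, which carry other gene names. Labels give the distance of the region's centre from the RefSeq start; Tgfbr1 reaches 56.8 at its start, and the Acvr1c start does not pass 2.28.

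Ordered by mean density with vehicle, the start regions ran from Tgfbr1 (6.33 ± 1.91) through Acvr1b (3.37 ± 0.0137), Acvr1 (3.29 ± 0.537), Tgfbr3l (3.10 ± 0.199), Acvr2a (2.78 ± 0.380), Acvr2b (2.33 ± 0.262) and Tgfbr3 (2.20 ± 0.315) to Acvr1c (1.43 ± 0.270). With activin the means were 7.96 ± 0.339 for Tgfbr1, 4.36 ± 0.888 for Acvr1b, 3.45 ± 0.0257 for Acvr1, 3.04 ± 0.125 for Tgfbr3l, 3.17 ± 0.318 for Acvr2a, 2.69 ± 0.153 for Acvr2b, 2.70 ± 0.184 for Tgfbr3 and 1.70 ± 0.0469 for Acvr1c (SD, n = 2 each). Tgfbr1 was the highest in each library and Acvr1c the lowest in each. With vehicle, each of the 6 genes between them overlapped with its neighbours among those 6, and Tgfbr2 had no start region.

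**Figure D2:**
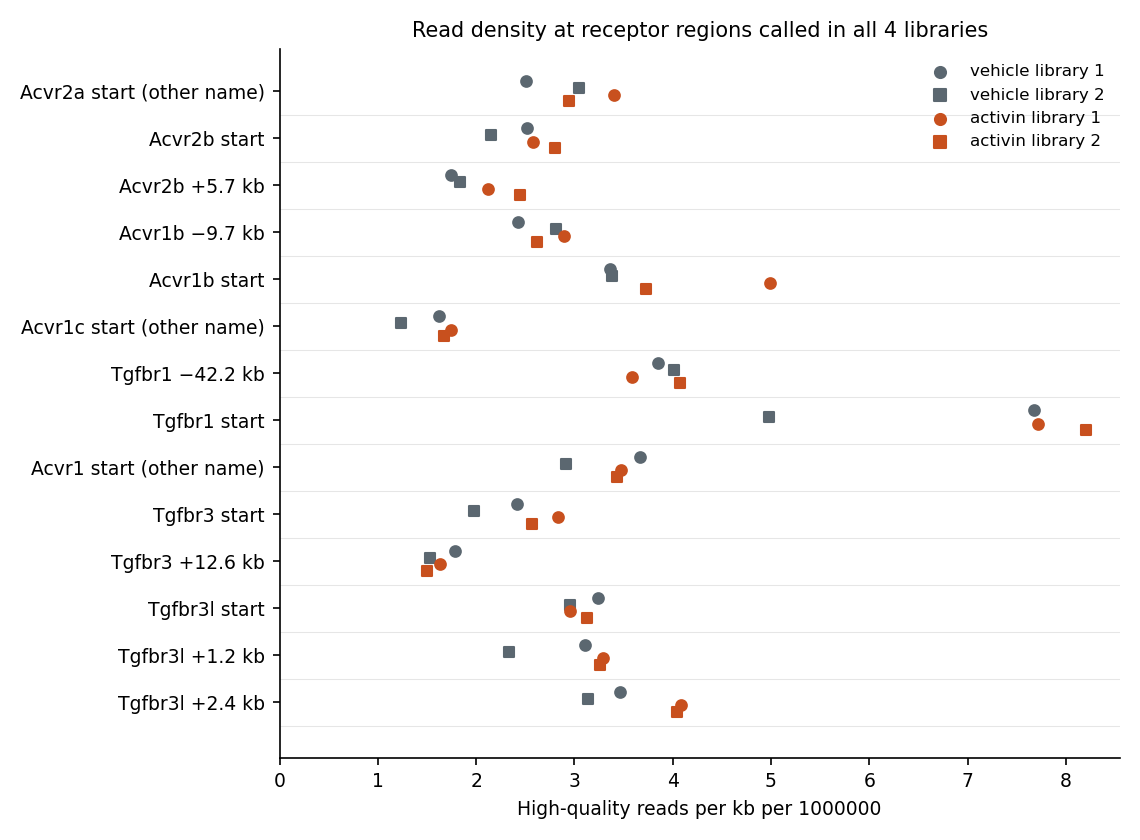
Read density (high-quality reads per kb of peak per 1000000 high-quality reads, linear axis from 0) is plotted in each library for the same regions. Tgfbr1 at its start lies between 4.98 and 8.20, and the other regions lie between 1.24 and 4.99.

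How many receptor genes counted as open at the start differed between definitions. A promoter-annotated peak under the gene's own name in all 4 libraries was found for 4 of 9 members (Acvr1b, Acvr2b, Tgfbr1 and Tgfbr3l), beside 30.0% of all protein-coding gene names. A peak of any name over a RefSeq promoter window in all 4 libraries was found for 6 of the 8 members with a window in the table (Acvr2a, Acvr2b, Acvr1b, Tgfbr1, Acvr1 and Tgfbr3l), beside 51.3% of 16457 protein-coding genes. With a peak under the gene's own name centred within 1 kb of the annotation's start, it was 5 of 9. The RefSeq definition changes both the name and the window, and was chosen after the files were seen.

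**Figure D3:**
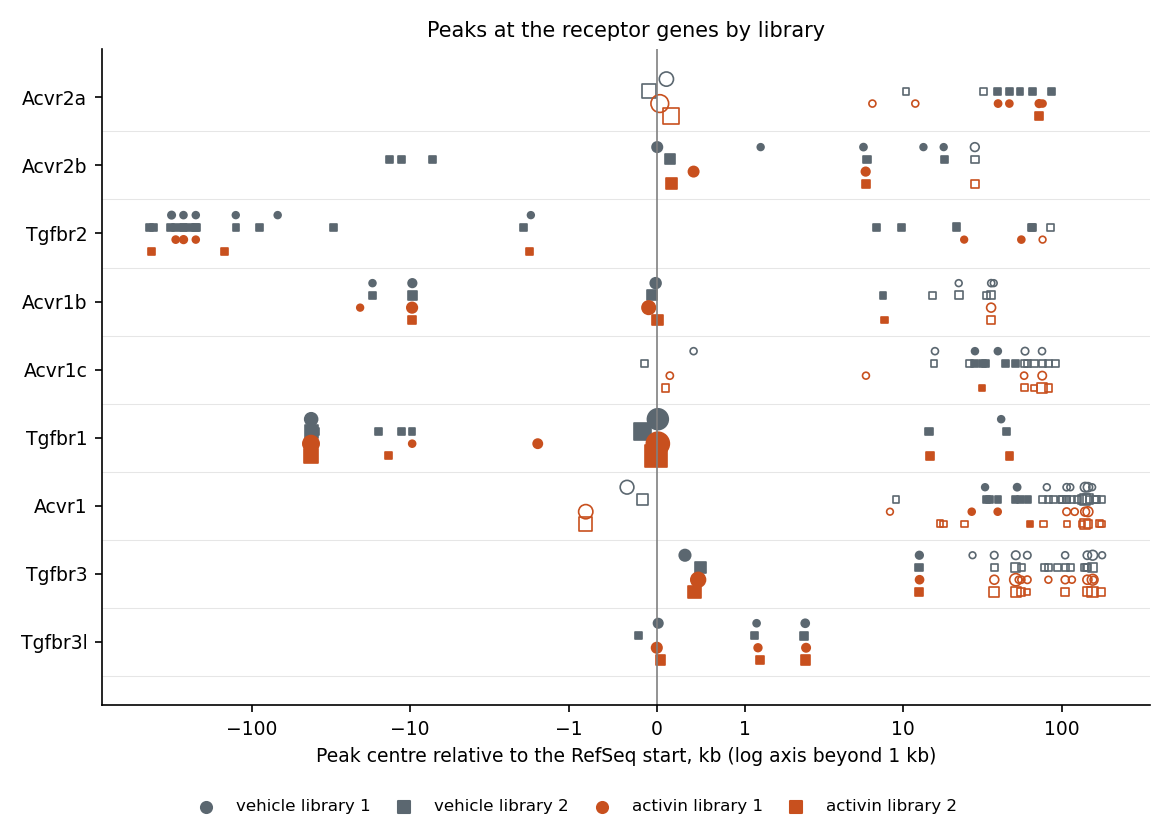
Each peak is placed by the distance of its centre from the RefSeq start (kb, linear within 1 kb and logarithmic beyond), with a row for each gene and a level within the row for each library. Filled marks carry the receptor's own gene name, open marks lie in the gene or over its start under another name, and mark area grows with the −log10 q; open marks hold the starts of Acvr2a, Acvr1 and Acvr1c, and Tgfbr2 has no mark at its start.

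The treatments were then compared at each receptor region. No receptor region that could be tested passed the threshold. A test needed exactly 1 peak in each library with a common part of at least 50% of the union, which 13871 autosomal regions met, and of the 11 receptor regions called in all 4 libraries 5 did. By limma on centred log2 density with Benjamini-Hochberg adjustment, 0 of these 5 were called, beside 0.0% of all shared regions (0 of 13871), and 0 of the 5 and 1322 of the 13871 had an unadjusted p under 0.05. The same test recovered 178 of 200 simulated regions that changed by 1 on the log2 scale and called 14 unchanged ones. The simulation kept the length of each peak fixed, whereas real peaks were called per library, so this recovery need not hold for these data.

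The estimated changes were small. The Tgfbr1 promoter differed by 0.09 ± 0.14 (log2 activin minus vehicle ± SE), with a 95% interval of −0.24 to 0.42 and a limma adjusted p of 0.870. Its estimate was −0.14 without vehicle library 2 and 0.31 without vehicle library 1. The Acvr1b promoter differed by 0.08 ± 0.13, with an interval of −0.21 to 0.38 (limma adjusted p = 0.863), and ran from −0.0868 without activin library 1 to 0.26 without activin library 2. The region upstream of Acvr1b had the lowest estimate, −0.20 ± 0.14, with an interval of −0.53 to 0.13 (limma adjusted p = 0.673), and ran from −0.39 without vehicle library 1 to −0.0065 without vehicle library 2. The Tgfbr3 start gave 0.03 ± 0.12 (interval −0.25 to 0.30, limma adjusted p = 0.962; −0.032 without vehicle library 2) and the Tgfbr3l exon region 0.03 ± 0.10 (interval −0.19 to 0.25, limma adjusted p = 0.947; −0.0033 without activin library 2). These intervals are not adjusted for the number of regions. The median over the 5 was 0.03, and that over all shared regions, which the centring holds near 0, was −0.0049.

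**Figure D4:**
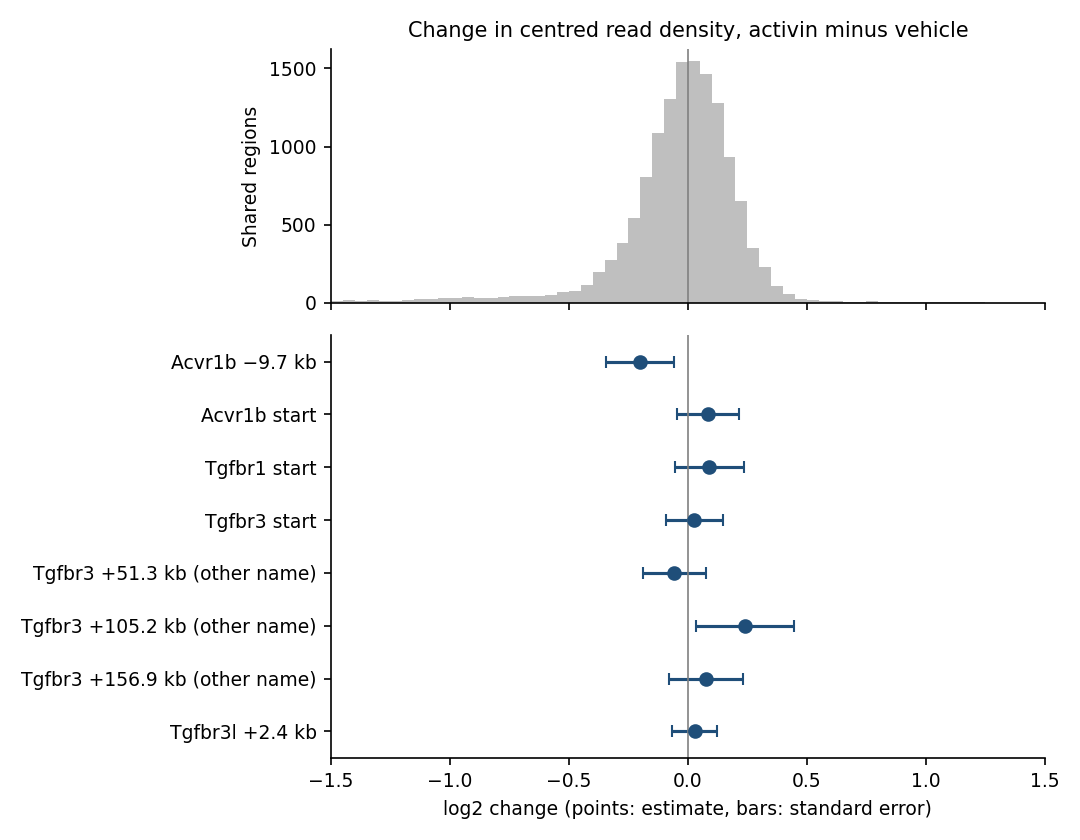
The lower panel gives the log2 change in centred read density, activin minus vehicle, with its standard error for the 5 tested receptor regions and for 3 tested regions inside Tgfbr3 that carry other gene names. The upper panel is a histogram of the same quantity for the shared regions (177 beyond 1.5 in either direction are not drawn); the receptor estimates lie between −0.20 and 0.24.

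Measures that were not centred were mostly higher with activin, in the receptor regions and over all shared regions. After centring, both activin libraries were above both vehicle libraries in 0 of the 5 tested regions, beside 20.9% of all shared regions, and below in 0 of 5, beside 20.5%. Density before centring was higher in both activin libraries in 4 of 5 (Tgfbr1, the Acvr1b promoter, Tgfbr3 and Tgfbr3l), beside 62.4% of all shared regions. The −log10 q was higher in both activin libraries in 3 of 5 (Tgfbr1, Tgfbr3 and Tgfbr3l), beside 71.7%. Enrichment at start sites was also higher in both activin libraries, and its part in these values was not tested.

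The other 6 receptor regions called in all 4 libraries could enter only a fit over all 28977 autosomal regions with a peak in each library, where the intervals compared differ more in length. None passed there either (0 of 28977 regions, 2724 of them with an unadjusted p under 0.05). The estimates were −0.21 ± 0.14 for the region 42.2 kb upstream of Tgfbr1, −0.25 ± 0.19 for Tgfbr3 intron 1, −0.19 ± 0.13 for the Tgfbr3l start, 0.11 ± 0.14 for the second Tgfbr3l region, 0.04 ± 0.14 for the Acvr2b promoter and 0.18 ± 0.18 for Acvr2b intron 1. Their limma adjusted p ran from 0.627 to 0.939. The start regions listed under other names gave 0.03 ± 0.18 for Acvr2a, −0.09 ± 0.12 for Acvr1 and 0.10 ± 0.20 for Acvr1c, with limma adjusted p from 0.839 to 0.972.

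The strongest distal region was the one 42.2 kb upstream of Tgfbr1 (chr4:47310493-47311472), which the annotation places in the last intron of Col15a1, a collagen gene. Its −log10 q was 15.1 and 15.2 under vehicle against 26.6 and 19.3 under activin, and its density was 3.85 and 4.01 against 3.59 and 4.07. The density overlapped between groups, while the −log10 q did not. Which gene this region acts on was not measured. A further peak, at −1955 bp from the annotation's Tgfbr1 start, (chr4:47351572-47351738) was called in activin library 1 alone, with a −log10 q of 5.78 and a density of 5.37.

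Most receptor peaks were weak, as were most peaks in the 4 lists. Of the 129 peaks, 62 were intronic, 36 intergenic, 21 at promoters, 9 in exons and 1 at a transcript end. A −log10 q under 2 was found for 58.9% of them and for 66.0% of all peaks in the lists, and a value of at least 5 for 20.9% and 14.6%. Of the 78 regions, 53 had a peak in 1 library, 33 of these in vehicle library 2, which had the longest list. How many of all merged regions had a peak in 1 library was not counted. Among the regions outside those described, the highest −log10 q of each gene stayed low. It was 2.39 in intron 5 of Tgfbr1 (chr4:47399949-47400084, activin library 2), 1.82 in intron 3 of Acvr1 (chr2:58514398-58514586, vehicle library 1) and 1.69 upstream of Acvr2b in the last intron of Xylb (chr9:119390710-119390915, vehicle library 2). It was 1.47 in intron 1 of Acvr1c (chr2:58318107-58318314, vehicle library 1) and 1.37 upstream of Acvr1b (chr15:101156564-101157053, vehicle library 1, with 1.14 in vehicle library 2). None of these was called in more than 2 libraries. A peak in all 4 libraries was found in 11 of 78 regions, beside 11.7% of all merged regions.

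Counts of receptor peaks followed the length of each list. They were 26 and 57 under vehicle against 25 and 21 under activin, with means of 41.5 ± 21.9 and 23.0 ± 2.83 (SD, n = 2 each). The difference of −18.5 had an exact permutation p of 0.333, 2-sided, which is the smallest that 2 against 2 libraries allow. As a share of each list the counts were 0.0312% and 0.0320% with vehicle and 0.0294% and 0.0297% with activin. Without vehicle library 2 the difference was −3.0, and with the same number of peaks taken from each list it was 1.0.

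Regions restricted to one treatment were few. A peak in both vehicle libraries and in neither activin library was found in 2 of 78 regions, beside 4.86% of all merged regions. The reverse held for 1 of 78, beside 1.35%. That region lies in intron 4 of Acvr2a (chr2:48886005-48886275), with a −log10 q of 2.61 and 2.27 in activin libraries 1 and 2. Absence of a call in a library means only that no peak passed the caller's limit there.

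The rest of the pathway was read from lists of genes, each by the promoter-annotated region with the highest −log10 q. A promoter-annotated peak in all 4 libraries is read against the 30.0% of all protein-coding names that had one. Of the symbols, 2 of the ligands and 3 of the co-receptor list gave their name to no peak. Cripto, among those 3, is another symbol of Tdgf1, which did give its name to a peak. Among 16 ligands and antagonists 5 had a promoter-annotated peak in all 4 libraries and 6 had a tested region, of which 0 passed; the highest estimate was Inha (0.11 ± 0.10), the inhibin α subunit, and the lowest Tgfb3 (−0.19 ± 0.14). Of 5 receptors of the BMP branch, Bmpr1a alone had such a peak under its own name and a tested region (0.04 ± 0.12). Among 18 symbols of co-receptors and receptor-associated proteins, which hold Tdgf1 under both of its symbols, 6 had the peak and 8 a tested region, of which 0 passed. The pseudoreceptor gene Bambi had the highest estimate in that list, 0.34 ± 0.14, with an unadjusted limma p of 0.0363 and a limma adjusted p of 0.503, the smallest in these lists. Synj2bp had the lowest, −0.18 ± 0.16. Among 13 Smad genes and nuclear partners 7 had the peak and 7 a tested region, of which 0 passed, from Foxl2 at 0.13 ± 0.12 to Foxh1 at −0.14 ± 0.10. The list medians were 0.02, 0.04, 0.07 and 0.05 in this order, and −0.0049 over all shared regions. The latter covers regions of every kind and is held near 0 by the centring, and no difference from it was tested. Peaks of any name over a RefSeq promoter window in all 4 libraries were counted too. In the same order, 3 of 12, 3 of 4, 9 of 14 and 7 of 8 genes with a window had one. The 3 ligand genes were Inhbb, Gdf1 and Gdf11, none of which had the promoter-annotated peak in all 4 libraries. Of the 5 ligand genes with that peak, Inha, Inhbc and Fstl3 had a window without a peak in all 4 libraries. Tgfb3 and Gdf9 had no window. The share over 16457 protein-coding genes was 51.3%.

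The promoter regions most like those of the receptors across the 4 libraries were sought among 6978 tested promoter regions by the Euclidean distance between the 4 centred log2 densities. For Tgfbr1 they were Svip at a distance of 0.0897 and Kri1 at 0.132. For Acvr1b they were Cep76 at 0.0940 and Smndc1 at 0.110. No other promoter-annotated receptor region was among those tested.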

How the data were processed

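Per the submitters' processing notes, Bowtie2, MACS2, HOMER and builds GRCm38 and mm10 were used; versions are not given in the sources used here. The deposited lists hold broad peaks called per library, each with a whole-number score (10 times the −log10 q, cut to a whole number, for nearly all peaks), a fold over the caller's background, and the −log10 of p and q. These are the authors' values. The other deposited measure is the number of high-quality reads overlapping each autosomal peak, in a quality report of ataqv 1.3.1 per the file headers; depth was 172146474 to 224226184 such reads per library. Because peaks were called per library, presence depends on depth and background.

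Peaks were merged where they overlapped by at least 1 bp. For shared regions, reads (plus 1) were divided by the kb of that library's peak, put on a log2 scale, centred by subtracting each library's median and fitted with limma 3.58.1 (eBayes with trend, no block); p-values were adjusted by Benjamini-Hochberg, with a threshold of 0.05. These values are densities in a report and not a count table, so no count model was used. Fold changes are on that log2 scale and understate changes of regions with few reads. The fit was tested on simulated data. Alternatives were another pseudocount, length, scaling, overlap, read minimum, replicate block and leaving out each library.

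Gene names are the annotation's; starts and promoter sequences are RefSeq's (GRCm38.p6), and the promoter sequences matched 8 of 9 members. Positions count from 1. Regions named singly were all those with a receptor peak in 4 libraries or a −log10 q of at least 5, the highest of the rest per gene, and per list the highest and lowest estimate. Start regions and regions under other names were added after the files were seen. The members and lists were chosen with earlier results of these data known. Of the gonadotrope markers, 1 gene is not reported here.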

Additional observations from a re-analysis of the deposited data

How the results depend on the processing

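Of 51 values of the 5 tested receptor regions under alternatives, 20 of them without 1 library, 0 passed the threshold (limma adjusted p from 0.115 to 0.999), 3 had an unadjusted p under 0.05, and 40 kept their sign. Without division by length the estimates turned to −0.29 (Tgfbr3l exon region), −0.0454 (Tgfbr1 promoter), −0.13 (Acvr1b promoter), 0.0938 (Acvr1b upstream region) and −0.0454 (the median). Scaling to all high-quality reads moved the median of all shared regions by 0.27, the receptor median to 0.30 and the Acvr1b upstream region to 0.073. Leaving out each library in turn gave −0.14 to 0.31 for the Tgfbr1 promoter, −0.0868 to 0.26 for the Acvr1b promoter, −0.032 to 0.087 for the Tgfbr3 start, −0.0033 to 0.0592 for the Tgfbr3l exon region, −0.39 to −0.0065 for the Acvr1b upstream region and −0.0065 to 0.0102 for the median. The difference in receptor peaks was 1.5 at a −log10 q of at least 2, 1.5 at 5 and 1.0 with equal lists, and −34.0 to −3.0 without each library. Receptor genes with a promoter peak in each library numbered 3 to 6 against 4, and 4 without each library.

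Shared regions called by limma numbered 1 with a pseudocount of 10 reads, 39 without division by length (5 higher, 34 lower), 605 with scaling to all high-quality reads (553 higher, 52 lower), 2 at a common part of at least 75%, 0 over all regions with a peak in each library, 0 at a mean of at least 50 reads, and 0 to 9 without each library, where the group left with 1 library is assumed to vary like the other. The cause was not tested. With the replicate number as a block 4 were called and 0 of the 5 receptor regions; deviations of same-numbered libraries correlated at −0.0252, so these libraries were not treated as pairs. In the simulation only changes of 1 on the log2 scale were tried, so the power for smaller ones is unknown.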

Other observations

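Inside the receptor genes, 124 further peaks in 70 regions carried other gene names, 14 of these regions with a peak in each library. Betaglycan's gene Tgfbr3 held 5 of the 14, along a gene of 183063 bp. One lies over exon 13 and an internal annotated promoter (chr5:107131928-107133628), with a −log10 q of 6.90, 4.93, 9.10 and 8.74 in vehicle libraries 1 and 2 and activin libraries 1 and 2. In intron 2 a region (chr5:107237998-107238628) had values of 4.27, 5.05, 13.2 and 7.83. In intron 3 a weak region (chr5:107184095-107184839) had a density of 0.945 and 0.717 under vehicle against 1.17 and 1.19 under activin, and it was above in both activin libraries after centring too. Its change was 0.24 ± 0.21 (limma adjusted p = 0.726), and the other 2 gave 0.08 ± 0.16 and −0.06 ± 0.13 (limma adjusted p = 0.903 and 0.917).

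Acvr1 held 2 such regions in intron 10, listed under Gm17409, in which the density was lower in both activin libraries. At chr2:58419877-58420809 it was 2.29 and 1.93 under vehicle against 1.76 and 1.79 under activin, with peaks of 325 and 555 bp against 933 and 730 bp. At chr2:58425544-58426802 it was 0.890 and 1.16 against 0.868 and 0.738, with peaks of 640 and 1259 bp against 586 and 921 bp. Density was also lower in both activin libraries in intron 3 of Acvr1c (chr2:58298416-58300247), at 0.946 and 1.13 against 0.871 and 0.898. The share of all regions with this order before centring was not counted. Both Acvr1 regions were singled out after their values were seen, and neither met the overlap needed for the test. Over all regions with a peak in each library their changes were −0.41 ± 0.16 and −0.51 ± 0.31 (limma adjusted p = 0.524 and 0.600).

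In Acvr1c a region in intron 5 (chr2:58281979-58282803) reached a −log10 q of 6.17 in activin library 2, where the gene's own start reached 2.28. Its density was 1.43, 1.38, 1.23 and 4.05, so activin library 2 stood apart from the other 3, with a peak of 154 bp against 341 to 825 bp.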
